A study of Mus musculus with 46 samples.

Results

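The 10 genes described here were chosen by symbol as germline genes known to be silenced by methylation in somatic cells. Dazl and Ddx4 encode RNA-binding proteins of germ cells, Tdrd12, Mael, Mov10l1 and Stk31 belong to or are linked with the piRNA pathway, Hormad1, Sycp3 and Sycp1 encode proteins of the meiotic chromosome axis and synaptonemal complex, and Tex101 encodes a surface glycoprotein of germ cells. All 10 were found among the 37108 genes of a gene table and, with transcripts summed by symbol, among the 35976 genes of a transcript table. RNA was sequenced during reprogramming of mouse embryonic fibroblasts (MEF) that carry the OG2 Oct4-GFP reporter and were infected with retroviral Oct4 together with Nanog. The Nanog was either native (NanogWT) or NanogBiD, called NanogN70 in the labels, in which an N-terminal piece of SS18 that interacts with BRG1 is fused to Nanog. Cells were collected on 8 days, D0 (after 2 rounds of infection), D1, D3, D5 and D7, and then D8, D10 and D12, with 2 libraries per combination and day, except NanogBiD at D8 with 1 library, which gave 31 time-course libraries. The medium was iCD3 until D7 and N2B27 with 2i and LIF afterwards. The gene table also held 2 MEF libraries, at passage 2, and 1 library of mouse embryonic stem cells (mES) with the OG2 reporter, at passage 20. The transcript table held MEF and mES with 12 samples of established iPSC, 6 per combination. The iPSC and mES were kept in N2B27 with 2i and LIF without feeder cells. The labels give each iPSC sample as iPSC1 or iPSC2, called line 1 and line 2 here, and a number with #. They do not say what either number stands for, and each line holds samples of both combinations. There were 7 samples of line 1 and 5 of line 2. Since every sample of line 2 was at passage 2 and every sample of line 1 at passage 5 or 6, line and passage cannot be told apart.

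Genes of this kind are known to be held off in somatic cells by methylation of CpG-rich promoters, together with repressors such as the PRC1.6 complex, which contains MGA and MAX, binding the E-box CACGTG, and E2F6, binding TCCCGC. In the germ line the methylation is erased, and the gene products act in translation, in the control of transposons by piRNAs and in the pairing of homologous chromosomes at meiosis. Naive pluripotent cells in 2i have low DNA methylation and are known to express some of them.

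Methylation was not measured in these data, so the silenced state could be checked on RNA only. Of the 10 genes, 6 (Dazl, Tdrd12, Stk31, Mov10l1, Tex101 and Hormad1) were listed at 0 in both MEF libraries of the gene table. Ddx4 stood at 0.0515 and 0.0502 FPKM in MEF and Mael at 0 and 0.0414, where FPKM, a fragment count scaled by gene length and library size, is a level per length. Sycp1, at 0.424 and 0.431 FPKM, and Sycp3, at 0.643 and 0.684, were detected in both MEF libraries.

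The promoters show what the genes share in sequence. A RefSeq window of the GRCm38.p6 build, from 250 bases before to 50 bases after the transcription start, was found for all 10 genes. The windows held from 11 (Tdrd12) to 38 (Ddx4) CpG dinucleotides with a median of 22.5, against a median of 7 over the 32851 windows of all genes, and all 10 lay above that median. CACGTG, which reads the same on both strands, occurred in 7 of the 10 windows (70%), against 7.15% of all windows and 10.97% of the 13594 windows with at least 11 CpG. TCCCGC, on either strand, occurred in 5 of 10 (50%), against 19.98% of all windows and 41.6% of those with at least 11 CpG. The windows of Dazl, Tdrd12 and Tex101 held neither motif. The windows of the 4 genes with the highest mES level among those called below are printed to show how they differ in CpG content, with that of Sycp3, which was detected in MEF and was not called. Letters run 5′ to 3′ on the strand of the gene, and CpG dinucleotides are in capitals.
Dazl, chr17:50293571-50293870, minus strand: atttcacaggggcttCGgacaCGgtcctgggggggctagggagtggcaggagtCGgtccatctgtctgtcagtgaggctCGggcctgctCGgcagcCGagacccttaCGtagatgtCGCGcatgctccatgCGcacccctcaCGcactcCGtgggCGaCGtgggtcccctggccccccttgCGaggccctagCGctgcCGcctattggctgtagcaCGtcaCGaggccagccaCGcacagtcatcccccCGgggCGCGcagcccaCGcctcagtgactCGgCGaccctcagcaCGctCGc
Hormad1, chr3:95559427-95559726, plus strand: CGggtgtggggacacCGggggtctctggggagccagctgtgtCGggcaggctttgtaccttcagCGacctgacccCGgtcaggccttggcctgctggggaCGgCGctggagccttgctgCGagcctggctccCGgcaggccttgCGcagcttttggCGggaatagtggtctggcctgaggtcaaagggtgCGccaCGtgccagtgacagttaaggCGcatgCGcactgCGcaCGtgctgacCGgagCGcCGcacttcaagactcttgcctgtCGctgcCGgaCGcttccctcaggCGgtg
Tdrd12, chr7:35537666-35537965, minus strand: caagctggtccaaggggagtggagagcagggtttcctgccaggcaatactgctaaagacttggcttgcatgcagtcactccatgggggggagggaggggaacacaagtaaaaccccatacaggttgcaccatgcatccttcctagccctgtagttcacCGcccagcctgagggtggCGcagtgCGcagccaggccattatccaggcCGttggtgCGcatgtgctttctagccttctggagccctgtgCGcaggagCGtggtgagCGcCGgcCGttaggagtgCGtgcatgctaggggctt
Ddx4, chr13:112652261-112652560, minus strand: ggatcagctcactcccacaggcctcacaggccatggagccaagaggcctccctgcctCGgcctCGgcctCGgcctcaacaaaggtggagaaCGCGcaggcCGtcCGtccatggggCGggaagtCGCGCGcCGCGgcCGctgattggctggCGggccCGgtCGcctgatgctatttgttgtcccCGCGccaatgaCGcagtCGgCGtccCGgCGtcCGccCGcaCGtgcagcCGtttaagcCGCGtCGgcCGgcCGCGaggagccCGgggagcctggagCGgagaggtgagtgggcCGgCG
Sycp3, chr10:88459337-88459636, plus strand: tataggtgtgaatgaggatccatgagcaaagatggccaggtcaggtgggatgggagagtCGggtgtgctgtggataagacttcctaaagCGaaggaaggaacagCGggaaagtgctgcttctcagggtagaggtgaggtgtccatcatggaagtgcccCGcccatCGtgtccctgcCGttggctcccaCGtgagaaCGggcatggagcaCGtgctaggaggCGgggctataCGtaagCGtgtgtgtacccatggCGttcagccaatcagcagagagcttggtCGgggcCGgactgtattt

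The window of Ddx4 held 38 CpG, that of Dazl 28 and that of Hormad1 24, whereas that of Sycp3 held 15 and that of Tdrd12 held 11. The E-box lay 29 bases before the start in Ddx4, 57 and 20 bases before it in Hormad1 and 64 and 43 bases before it in Sycp3. In the same build the RefSeq gene Sycp3 (chromosome 10, 88459587 to 88473236) overlaps at its 3′ end Chpt1 (88469513 to 88503970), a phospholipid synthesis gene on the opposite strand. Whether the quantification used strand is not stated, so Sycp3 is uncertain and Chpt1 is given beside it.

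**Figure D1:**
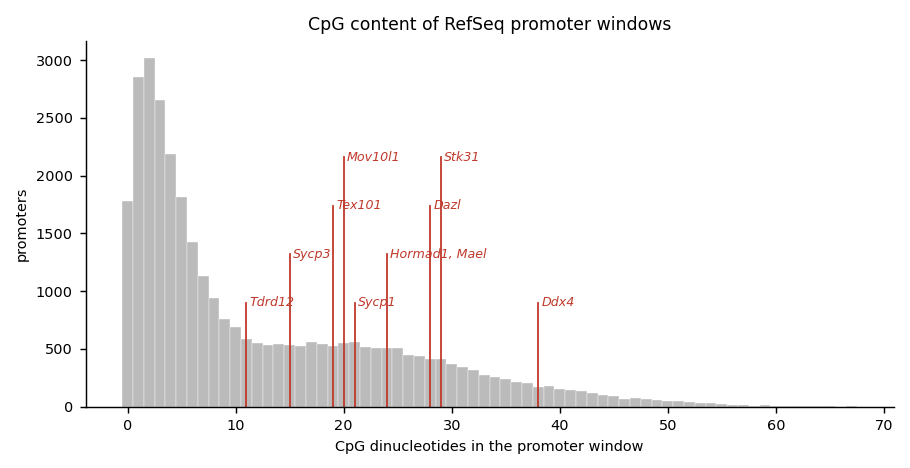
Number of RefSeq promoter windows (vertical axis) by their count of CpG dinucleotides (horizontal axis), with lines at the counts of the 10 germline genes, whose heights only separate the names. All 10 lie above the median of 7, from Tdrd12 with 11 to Ddx4 with 38.

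Depth differed between the combinations at late days. Relative depth, read from the FPKM that 1 read takes in low genes, was 0.828 to 1.13 in 25 time-course libraries and 1.90 to 3.28 in the 6 NanogWT libraries of D8 to D12, so depth and combination cannot be told apart from D8 on. The labels do not say that replicates came from separate cultures, so p-values measure only the spread between these libraries, which may be technical. In bulk RNA, fewer cells that express a gene and less of its RNA per cell cannot be told apart.

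From D0 to D7 most of the germline genes were close to silent with either combination. Leaving aside Ddx4, Sycp1 and Sycp3, the highest of 140 values of the other 7 genes in 20 libraries was 0.172 FPKM, in Dazl, and 103 were listed at 0. A minimum of 1 FPKM in 2 or more libraries of the time course was set for the test, which left 16842 genes and 6 of the 10 (Dazl, Ddx4, Tdrd12, Stk31, Hormad1 and Sycp3). Ddx4, Stk31 and Hormad1 reached 1 FPKM in both NanogBiD libraries of D12 and in no other time-course library. Dazl and Tdrd12 reached it in 5 libraries, those of NanogBiD at D10 and D12 and 1 of NanogWT at D12. All of these genes thus entered the test only with NanogBiD libraries in which they were high. Counts of calls among the 6 are therefore given as a description. Calls required a limma p, adjusted by the Benjamini-Hochberg method, under 0.05 and a 2-fold difference or more on the log2(FPKM + 1) scale, which understates changes of low genes. Of the 6 genes 0 were called between NanogBiD and NanogWT at D0, D1, D3, D5 or D7, days on which 0.422%, 0.368%, 1.25%, 3.2% and 5.79% of all genes were called higher with NanogBiD. Ddx4 alone had an unadjusted p under 0.05, at D3 and D5. Over all 16842 genes 3847 had such a p at D3 and 4911 at D5, a larger share than 1 of 6.

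Ddx4 is described apart because it alone of the tested genes had an unadjusted limma p under 0.05 at D3 and D5. Over all genes tested the share with such a p was larger on both days, so the choice is a description. Sycp1 and Sycp3, described below, were not silent early either. At D3 Ddx4 stood at 0.794 and 0.381 FPKM with NanogBiD and at 0.0521 and 0.0170 FPKM with NanogWT. At D5 it stood at 0.470 and 0.382 FPKM against 0.0928 and 0.0556 FPKM. On both days the NanogBiD libraries were higher and the groups did not overlap. Such separation is common with 2 libraries a group, since at D10 it held for 30.3% of all genes above 0 in any library. Its share over all genes at D3 and D5 was not computed. The log2 difference was 0.61 (SE 0.15, adjusted p = 0.0132) at D3 and 0.41 (SE 0.15, adjusted p = 0.0735) at D5, both under the fold limit. At D7 the 2 NanogBiD libraries, at 0.440 and 0.0644 FPKM, lay on either side of the higher NanogWT library, at 0.138 FPKM. The NanogBiD level was 0.398 ± 0.011 FPKM (SD, n = 2) at D10, within the range of D3, before it reached 2.05 and 1.51 FPKM at D12.

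**Figure D2:**
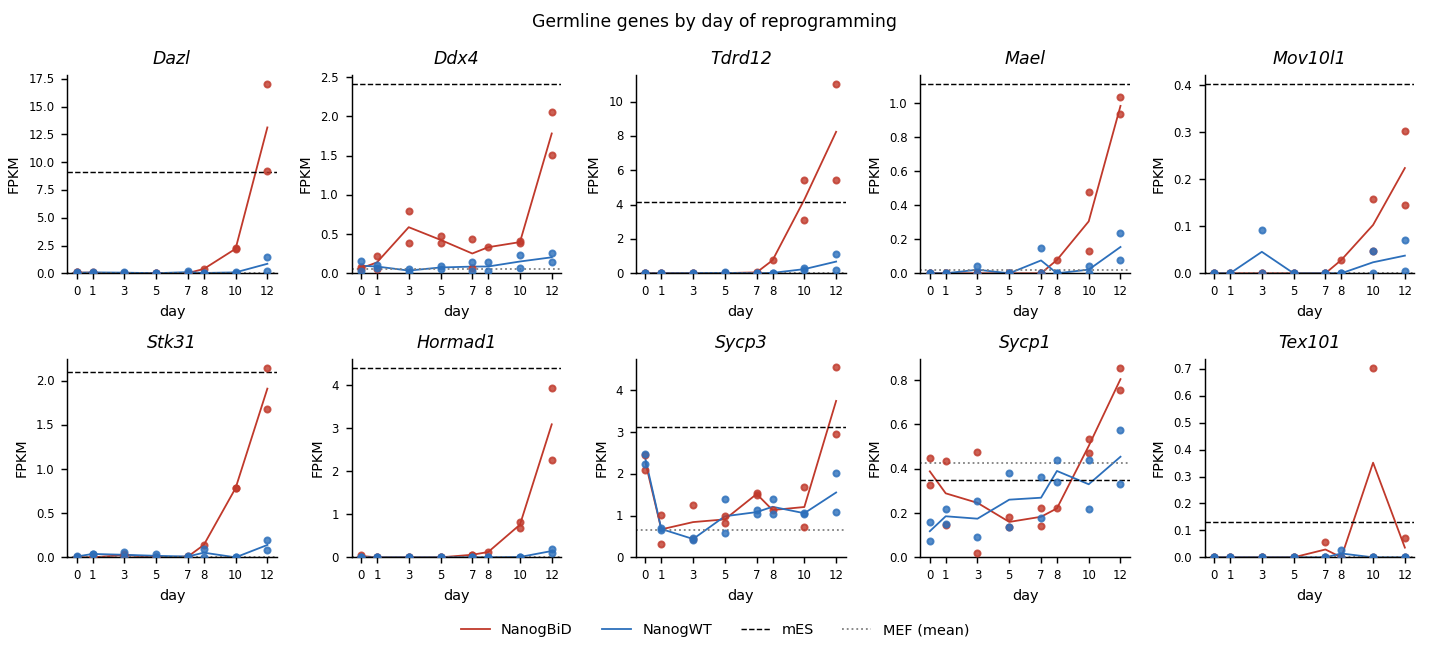
FPKM (vertical axes, each with its own scale) of the 10 germline genes by day (horizontal axes), with a point per library and lines through the means of NanogBiD and NanogWT, the mES library as a dashed line and the MEF mean as a dotted line. With NanogBiD, Dazl, Tdrd12, Stk31, Hormad1 and Mael are near 0 until D8 and highest at D12, whereas Sycp3 starts above 2 FPKM with both combinations.

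At D8 the single NanogBiD library held 0.392 FPKM of Dazl, 0.759 of Tdrd12, 0.140 of Stk31 and 0.124 of Hormad1. In the deeper NanogWT libraries of that day Dazl stood at 0.0470 and 0.00894 FPKM and Tdrd12 at 0.0224 and 0.0249. Both genes were higher in the NanogBiD library than in either NanogWT library. With the lone library assumed to vary like the other groups, 0 of 6 genes were called by limma, against 13% of all genes called higher with NanogBiD. The log2 difference of Tdrd12 was 0.78.

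At D10, 2 of the 6 genes were called higher with NanogBiD, against 15.4% of all genes. Both genes passed the filter only with NanogBiD libraries of D10 and D12, so this count is a description. Without the filter the same genes were called. Tdrd12, a Tudor domain protein of piRNA production, stood at 5.46 and 3.13 FPKM with NanogBiD and at 0.168 and 0.317 FPKM with NanogWT (log2 difference 2.06, SE 0.24, adjusted p = 7.23e-07). Dazl, a regulator of translation in germ cells, stood at 2.16 and 2.25 FPKM against 0.0295 and 0.136 FPKM (log2 difference 1.57, SE 0.24, adjusted p = 1.4e-05). For both genes the replicates of a combination lay closer to each other than to the other combination.

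Stk31 at D10 stood at 0.782 and 0.786 FPKM with NanogBiD and was listed at 0 in both NanogWT libraries. Hormad1 stood at 0.827 and 0.692 FPKM against 0.0171 and 0. Their log2 differences of 0.83 (adjusted p = 7.62e-07) and 0.80 (adjusted p = 3.64e-05) were under the fold limit, and both were called without it. Over all 10 genes, both NanogBiD libraries of D10 lay above both NanogWT libraries for 8, against 30.3% of all genes above 0 in any library.

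At D12, 5 of the 6 genes (Dazl, Tdrd12, Hormad1, Stk31 and Ddx4) were called higher with NanogBiD than with NanogWT, against 13.5% of all genes. Ddx4, Stk31 and Hormad1 passed the filter only through these NanogBiD libraries, and Dazl and Tdrd12 only with NanogBiD of D10 and D12. The share of the 6 is therefore no measure of the group, and without the filter 5 of all 10 genes were called. Over all 10 genes both NanogBiD libraries lay above both NanogWT libraries for 9, the exception being Tex101, against 32.5% of all genes above 0 in any library.

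Dazl reached the highest level of the 10. It stood at 17.04 and 9.22 FPKM with NanogBiD, 0.229 and 1.48 FPKM with NanogWT and 9.08 FPKM in mES. Both NanogBiD libraries were thus above the mES library and both NanogWT libraries were below it. The log2 difference between the combinations was 2.96 (SE 0.24, adjusted p = 6.11e-09).

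Tdrd12 stood at 11.03 and 5.46 FPKM with NanogBiD, 0.211 and 1.15 FPKM with NanogWT and 4.18 FPKM in mES, a log2 difference of 2.45 (SE 0.24, adjusted p = 1.01e-07). As for Dazl, both NanogBiD libraries passed the mES level. Hormad1, a HORMA domain protein of the unsynapsed meiotic axis, stood at 3.93 and 2.25 FPKM with NanogBiD, 0.109 and 0.185 FPKM with NanogWT and 4.40 FPKM in mES, a log2 difference of 1.80 (SE 0.13, adjusted p = 1.85e-09). Its NanogBiD libraries stayed below mES.

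Stk31, a protein with Tudor and kinase domains, stood at 2.14 and 1.68 FPKM with NanogBiD, 0.0788 and 0.201 FPKM with NanogWT and 2.10 FPKM in mES (log2 difference 1.35, SE 0.10, adjusted p = 1.92e-09). Ddx4, the germ cell helicase also called Vasa, stood at 2.05 and 1.51 FPKM with NanogBiD, 0.147 and 0.260 FPKM with NanogWT and 2.41 FPKM in mES (log2 difference 1.203, SE 0.15, adjusted p = 1.97e-06). The NanogBiD libraries lay on either side of the mES library for Stk31 and below it for Ddx4. For both genes they lay above both NanogWT libraries. After quantile normalization the difference of Ddx4 was 0.93, under the fold limit.

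Mael, a piRNA pathway protein of the germ cell nuage, did not pass the filter on low values. It stood at 1.03 and 0.935 FPKM with NanogBiD, 0.0753 and 0.234 FPKM with NanogWT and 1.11 FPKM in mES at D12. Without the filter its log2 difference was 0.78 (SE 0.09, adjusted p = 1.44e-06), under the fold limit. Mov10l1, the helicase that binds piRNA precursors, stood at 0.303 and 0.145 FPKM against 0.00455 and 0.0706, with 0.403 FPKM in mES. Tex101 was listed at 0 in 27 of the 31 time-course libraries, and its highest value, 0.703 FPKM, was in 1 NanogBiD library of D10 whose partner was listed at 0.

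Sycp3 and Sycp1, which build the axis and the transverse filaments of the synaptonemal complex, had another time course. Sycp3 stood at 2.08 and 2.46 FPKM with NanogBiD and 2.23 and 2.48 FPKM with NanogWT at D0, and between 0.317 and 1.02 FPKM in the 4 libraries of D1. Chpt1 stood at 7.45 and 8.45 FPKM with NanogBiD and 5.92 and 8.90 FPKM with NanogWT at D0, and between 1.84 and 3.13 FPKM at D1. Both genes of the overlapping pair were thus lower at D1 in every library, and the part of shared reads was not tested.

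At D12 Sycp3 stood at 4.55 and 2.94 FPKM with NanogBiD and 1.09 and 2.02 FPKM with NanogWT, beside 3.13 FPKM in mES. Chpt1 stood at 3.28 and 3.36 FPKM with NanogBiD against 3.78 and 5.26 FPKM. Sycp3 was thus higher with NanogBiD while Chpt1 was not. The log2 difference of Sycp3 was 0.90 (SE 0.26, adjusted p = 0.00697), under the fold limit, and it was called without NanogBiD D12 replicate 2 or without NanogWT D12 replicate 2. Sycp1 ranged from 0.0174 to 0.855 FPKM over the time course and stood at 0.855 and 0.753 FPKM with NanogBiD at D12 against 0.332 and 0.576 FPKM with NanogWT. Without the filter its log2 difference was 0.32 (SE 0.15, adjusted p = 0.128).

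**Figure D3:**
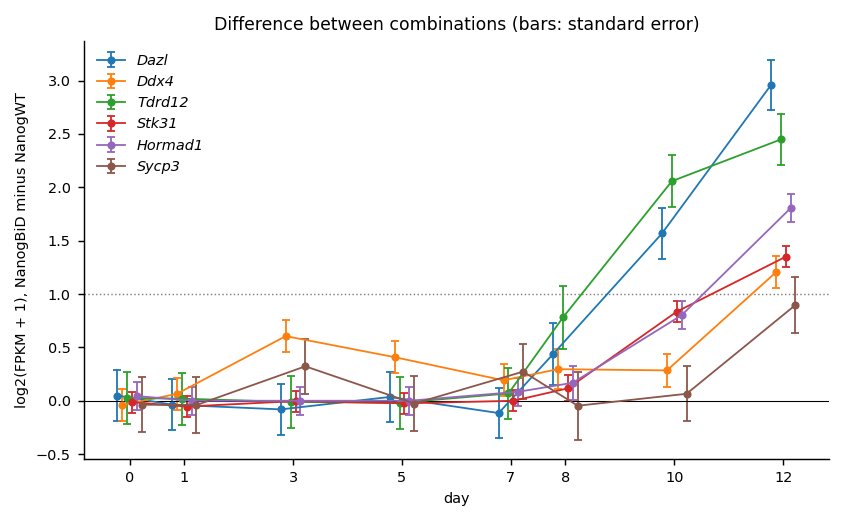
Difference in mean log2(FPKM + 1), NanogBiD minus NanogWT (vertical axis), by day (horizontal axis) for the 6 germline genes that passed the filter, with bars of 1 standard error and the fold limit as a dotted line. At D3 Ddx4 stands at 0.61, and at D12 the genes run from 0.90 for Sycp3 to 2.96 for Dazl.

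Set against D0, 5 of 6 genes were called higher at D12 with NanogBiD, against 24.6% of all genes. The log2 differences were 3.66 for Dazl (SE 0.24, adjusted p = 1.34e-10), 3.11 for Tdrd12 (SE 0.24), 1.96 for Hormad1 (SE 0.13), 1.54 for Stk31 (SE 0.10) and 1.38 for Ddx4 (SE 0.15). Sycp3 differed by 0.52 (SE 0.26, adjusted p = 0.0899). The same 3 genes entered only through the NanogBiD libraries of D12, and without the filter 5 of all 10 genes were called.

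With NanogWT, 0 of 6 genes were called by limma between D0 and D12, against 12.2% of all genes called higher. Unadjusted p was under 0.05 for 7786 of all 16842 genes, and for 2 of the 6. These were Dazl (log2 difference 0.75, SE 0.24, adjusted p = 0.0167) and Tdrd12 (0.69, SE 0.24, adjusted p = 0.0302). The count rested on NanogWT D12 replicate 1, since without it Dazl (1.26, adjusted p = 0.000182) and Tdrd12 (1.11, adjusted p = 0.00265) were called.

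The interaction, which tests whether the change from D0 to D12 differed between the combinations, was called higher for the same 5 genes as with NanogBiD alone, against 13.4% of all genes. It was 2.91 for Dazl (SE 0.33), 2.42 for Tdrd12 (SE 0.34), 1.76 for Hormad1 (SE 0.19), 1.36 for Stk31 (SE 0.14) and 1.24 for Ddx4 (SE 0.21), with adjusted p-values from 5.12e-07 (Stk31) to 0.000155 (Ddx4). For Sycp3 it was 0.94 (SE 0.37, adjusted p = 0.0515). This count too includes the 3 genes that entered only through the NanogBiD libraries of D12, and without the filter it was 5 of all 10. The contrasts share the D0 and D12 libraries.

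Relative to the 1 mES library, the NanogBiD mean at D12 was 197% for Tdrd12, 145% for Dazl, 120% for Sycp3, 91.1% for Stk31, 88.4% for Mael, 73.8% for Ddx4, 70.3% for Hormad1, 55.6% for Mov10l1 and 27.7% for Tex101. Sycp1 stood at 231% with NanogBiD and 131% with NanogWT, at levels under 1 FPKM. A reference of 1167 other genes had at least 1 FPKM in mES and an FPKM + 1 there of 4-fold or more the MEF mean + 1. Their median was 50.03% with quartiles of 30.9% and 73.4%. Of the germline genes only Dazl, Tdrd12 and Hormad1 meet this limit, so the others are set beside genes of higher mES level or larger difference from MEF. With NanogWT the germline genes other than Sycp1, Sycp3 and Tex101 had 3.34% (Hormad1) to 16.3% (Tdrd12) of mES, and the other genes a median of 13.2%. These shares are a description, since mES has no replicate.

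The D12 replicates differed in the same sense over the group. The share of all genes that were higher in the same replicate was not computed. Totals over all genes were 421489 and 394371 FPKM in NanogBiD replicates 1 and 2, and 401082 and 384577 FPKM in those of NanogWT. All 10 germline genes were higher in NanogBiD replicate 1 than in replicate 2, with sums of 43.0 and 24.9 FPKM. The 10 pluripotent cell markers summed to 2038 and 1093 FPKM in the same libraries, and the 8 fibroblast markers to 292 and 433 FPKM. With NanogWT, 9 of the 10 germline genes were higher in replicate 2, with sums of 2.28 and 6.18 FPKM, beside 137 and 218 FPKM of pluripotent cell markers and 3456 and 3012 FPKM of fibroblast markers. The replicate with more germline RNA thus had more pluripotent and less fibroblast RNA in both combinations, and the part of the share of reprogrammed cells was not tested.

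As a percent of mES, the summed germline genes with NanogBiD stood at 7.95% and 7.59% (D7), 44.2% and 35.8% (D10), and 158% and 91.2% (D12). The summed pluripotent cell markers stood at 3.41% and 3.15%, 29.2% and 16.1%, and 56.7% and 30.4% in the same libraries. The germline sum was not at 0 to begin with, at 9.95% and 10.9% at D0 and 4.10% and 4.42% in MEF, and Sycp3 made up 1.499 and 1.53 of its 2.17 and 2.07 FPKM at D7.

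**Figure D4:**
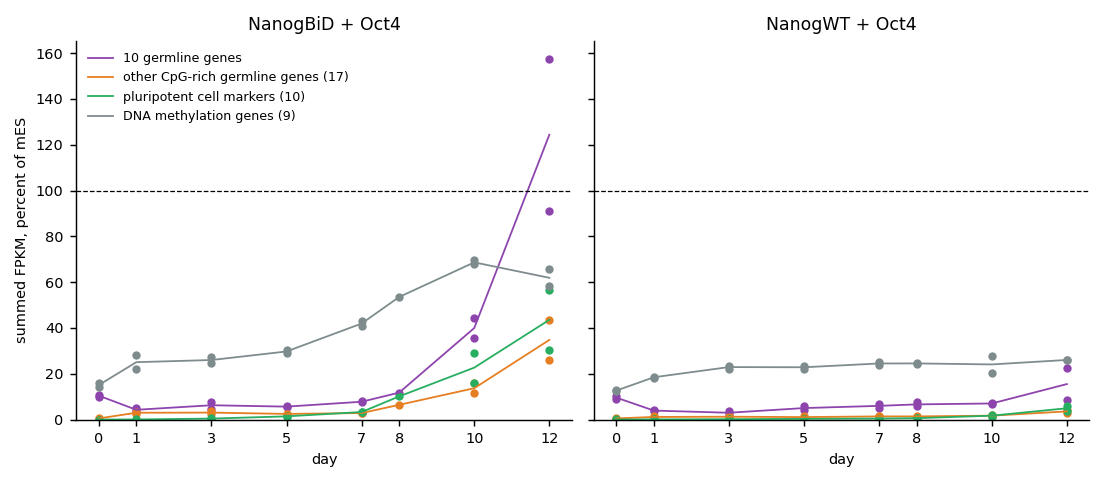
Summed FPKM of 4 gene lists as a percent of the mES library (vertical axis) by day (horizontal axis), with a point per library and lines through the means, for NanogBiD and NanogWT. At D12 the germline genes stand at 158% and 91.2% with NanogBiD and at 8.34% and 22.6% with NanogWT.

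Other germline genes were higher with NanogBiD at D12 as well, where 13.5% of all genes were called higher. Of 18 other piRNA pathway genes 7 were tested and 5 were called higher, led by Rnf17 (4.56 ± 0.28 against 0.450 ± 0.369 FPKM, SD, n = 2, log2 difference 1.96), Pld6 (1.85) and Gpat2 (1.38). Of 26 other meiotic chromosome genes 13 were tested and 10 were called higher, led by the meiotic cohesin subunit Rec8 (16.7 ± 0.4 against 2.39 ± 0.01 FPKM, log2 difference 2.38), the meiotic initiation factor Stra8 (3.62 ± 0.43 against 0.258 ± 0.227 FPKM, 1.89) and Trip13 (1.74). Of 17 other germline genes with CpG-rich promoters 8 were tested and 6 were called higher, led by Tuba3a (3.24), Tex19.1 (3.02) and Sohlh2 (2.90). Across these 3 lists 0 genes were called lower. As above, a gene near 0 elsewhere could be tested only through the libraries in which it was high, so these counts are a description. Tuba3a has a near-identical copy, so its value is uncertain.

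Some of the germline genes followed each other across libraries. Over the 34 libraries of the gene table the log2 levels of Dazl, Ddx4, Tdrd12, Stk31 and Hormad1 had a Pearson r of 0.79 to 0.99 in 10 pairs, a description over libraries that share days and depth. Sycp3 had r of 0.55 to 0.66 with these 5 genes, Sycp1 0.39 to 0.65 and Tex101 0.23 to 0.53, and Tex101 with Sycp3 0.0045. The 10 genes most like the mean of the 6 tested germline genes were Gm17353 (r = 0.99), Gm35588, Gm10324, 2410017I17Rik, Rnf17, EU599041, Stra8, Gm10499, Gm19428 and Tuba3a (r = 0.98). By Spearman's rho their values were lower, from 0.56 for Rnf17 to 0.79 for Gm19428.

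Markers of germ cell stages and of neighbouring cells were set beside the group, at D12, where 13.5% of all genes were called higher with NanogBiD. The 7 haploid spermatid markers, such as protamines, summed to 0.832 and 0.204 FPKM in NanogBiD at D12 against 0.365 and 0.665 FPKM in NanogWT, and 0 of them passed the filter. Of 8 primordial germ cell markers, which naive pluripotent cells also express, 7 were called higher with NanogBiD at D12, led by Dppa3 (103 ± 40 against 7.25 ± 8.04 FPKM, with 22.9 in mES), Tfap2c and Prdm14, with log2 differences of 4.06, 3.43 and 2.92. Of 6 Sertoli cell markers 2 were tested and both were higher, Sox9 by 1.30 and Rhox5, an X-linked gene also expressed in embryonic stem cells, by 3.19. The 3 tested two-cell-stage markers, Zscan4a, Zscan4c and Zscan4f, were higher by 1.96, 2.47 and 2.75, and the list summed to 24.96 and 22.1 FPKM against 3.27 in mES. Zscan4 genes are near-identical copies, so the single values are uncertain. The part of cells of these kinds in the germline result was not tested.

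Genes that place, copy or remove DNA methylation changed over the same days, on which 24.6% of all genes were called higher from D0 to D12 with NanogBiD. All 9 were called higher at D12 than at D0 with NanogBiD, including the maintenance methyltransferase Dnmt1 (10.98 ± 0.55 to 43.9 ± 3.3 FPKM, log2 difference 1.90), its partner Uhrf1 (15.8 ± 2.5 to 69.0 ± 8.0 FPKM, 2.06), the de novo methyltransferase Dnmt3b (2.91), its cofactor Dnmt3l (3.30) and the methylcytosine oxidase Tet1 (0.507 ± 0.061 to 15.1 ± 0.1 FPKM, 3.41). With NanogWT 3 of the 9 were called, against 12.2% of all genes called higher. Between the combinations at D12, Dnmt1, Uhrf1, Dnmt3b, Dnmt3l, Tet1 and Tet2 were higher with NanogBiD by 1.27 (Tet2) to 2.72 (Dnmt3l), whereas Dnmt3a (0.08, SE 0.15), Tet3 (-0.12, SE 0.22) and Tdg (0.68, SE 0.17) were not called. Of 19 genes of PRC1.6 and H3K9 repressors, 9 were called higher from D0 to D12 with NanogBiD and 1, Yaf2, was called lower (-1.74). At D12, 6 of the 19 were higher with NanogBiD than with NanogWT and 13 were not called. Among the 6 were Pcgf6, the defining subunit of PRC1.6 (1.49), Wdr5 (1.46) and Trim28 (1.39). Between the combinations at D12, 13.5% of all genes were called higher with NanogBiD.

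Established iPSC carried most of these transcripts whichever combination had made them. The transcript table was quantified separately, so its levels are compared only within it. All 12 iPSC samples lay above both MEF samples for 8 of the 10 genes, the exceptions being Sycp1 and Tex101, against 21.5% of all genes above 0 in any sample. Of the 9 genes that passed the filter, 6 were called higher in iPSC than in MEF, against 21.5% of all genes tested. Genes at or near 0 in MEF could pass the filter only through iPSC or mES, and without the filter 6 of all 10 were called.

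Tdrd12 was highest in iPSC. It ranged from 12.1 to 40.1 FPKM with a median of 22.7 over the 12 samples, was listed at 0 in MEF and stood at 16.4 FPKM in mES (log2 difference from MEF 4.61, SE 0.30, adjusted p = 8.32e-09). Hormad1 ranged from 1.14 to 18.7 FPKM with a median of 9.19, beside 5.18 FPKM in mES (log2 difference 3.05, SE 0.69, adjusted p = 0.00126). Dazl ranged from 1.92 to 18.7 FPKM with a median of 5.78, beside 9.24 FPKM in mES (log2 difference 2.99, SE 0.58, adjusted p = 0.000363). Relative to its median, the spread of Hormad1 and of Dazl was wider than that of Tdrd12, and both genes were listed at 0 in MEF.

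Stk31 ranged from 2.39 to 9.60 FPKM with a median of 4.49, beside 2.78 in mES (log2 difference 2.51, SE 0.36, adjusted p = 2.22e-05). Mael ranged from 1.03 to 3.61 FPKM with a median of 2.49, beside 1.40 in mES (log2 difference 1.72, SE 0.23, adjusted p = 1.44e-05). Ddx4 ranged from 1.23 to 3.94 FPKM with a median of 1.82, beside 3.30 in mES and 0.0605 and 0.0568 in MEF (log2 difference 1.52, SE 0.27, adjusted p = 0.000145). Ddx4 was detected in every iPSC sample, above the mES level in NanogBiD 4# and below it in the other 11.

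Sycp3 ranged from 0.380 to 3.46 FPKM in iPSC, against 0 and 0.116 FPKM in MEF and 2.19 in mES, with a log2 difference of 0.81 (SE 0.30, adjusted p = 0.0264) that was under the fold limit. Its MEF level in this table was lower than in the gene table. Tex101 ranged from 0 to 2.22 FPKM (log2 difference 0.89, SE 0.41, adjusted p = 0.0653). Sycp1 ranged from 0.491 to 1.104 FPKM in iPSC against 0.589 and 0.578 in MEF (0.18, SE 0.15, adjusted p = 0.289), so that its iPSC and MEF samples overlapped. Mov10l1, at 0.204 to 1.201 FPKM against 0 in MEF, did not pass the filter, and its log2 difference of 0.59 had an exact two-sided permutation p of 0.011, the smallest that 12 samples against 2 allow.

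Between iPSC made with NanogBiD and with NanogWT, 0 of 9 germline genes were called by limma and 0 had an unadjusted p under 0.05, where 0% of all genes were called and 201 had an unadjusted p under 0.05. Dazl had a median of 5.78 FPKM in NanogBiD iPSC (3.27 to 18.7) and 6.40 FPKM in NanogWT iPSC (1.92 to 16.04), with a log2 difference of 0.24 (SE 0.39). Hormad1 had medians of 6.48 and 11.02 FPKM and a difference of 0.15 (SE 0.50), and the difference farthest from 0 was that of Sycp3 (-0.28, SE 0.25). A call required a difference of at least 1 log2 unit, so a smaller one could not be called whatever its standard error. With standard errors such as those of Dazl and Hormad1, smaller differences could also miss an unadjusted p under 0.05.

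**Figure D5:**
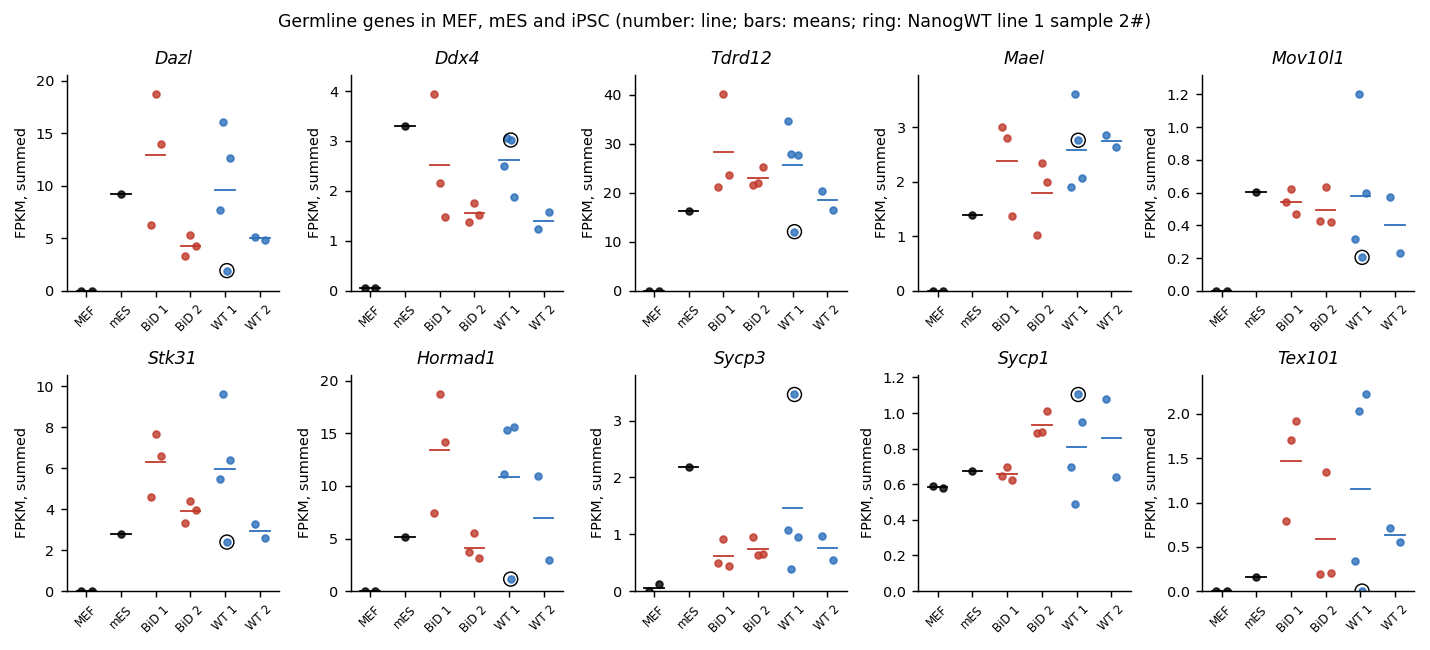
FPKM (vertical axes) of the 10 germline genes in each iPSC sample, by combination and line, with MEF and mES beside them. The ranges of both combinations overlap for every gene, and for Dazl, Ddx4, Hormad1 and Stk31 most line 1 samples lie above the line 2 median, whereas NanogWT 2# lies low in Dazl, Stk31 and Hormad1.

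Levels were also compared between the lines. The median was lower in line 2 than in line 1 for 9 of the 10 genes, the exception being Sycp1. The share of all genes with a lower median in line 2 was not computed. Dazl had a median of 12.7 FPKM in line 1 (1.92 to 18.7) and 4.84 in line 2 (3.27 to 5.34), and 6 of the 7 line 1 samples lay above every line 2 sample. Hormad1 had medians of 14.2 and 3.72 FPKM, Stk31 of 6.43 and 3.35 and Ddx4 of 2.498 and 1.51. Of 9 genes tested 0 were called by limma, against 0.883% of all genes called in either direction. Unadjusted p was under 0.05 for 3 of the 9 (Dazl, Ddx4 and Stk31), and for 3059 of all 12456 genes. The log2 differences, line 2 minus line 1, were -0.95 for Dazl (SE 0.40, adjusted p = 0.171), -0.95 for Hormad1 (SE 0.51, adjusted p = 0.269), -0.63 for Stk31 (SE 0.23, adjusted p = 0.128) and -0.49 for Ddx4 (SE 0.17, adjusted p = 0.113). The count of 0 called rested on NanogWT 2#, the line 1 sample lowest in Dazl, Tdrd12, Stk31, Mov10l1, Tex101 and Hormad1. Without it, Dazl (-1.20, adjusted p = 0.0162) and Hormad1 (-1.29, adjusted p = 0.022) were called.

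Single iPSC samples differed over several germline genes at once. NanogWT 2# had a summed level of 28.1 FPKM over the 10 genes, the lowest of the 12 samples, while its 10 pluripotent cell markers summed to 5211 FPKM, the highest. NanogBiD 8# was highest for Dazl, Tdrd12 and Hormad1 and summed to 94.1 FPKM, beside 41.9 in mES and 0.650 and 0.751 in MEF. The fibroblast markers summed to 1.28 to 1360 FPKM over the iPSC samples, highest in NanogBiD 9#, followed by NanogWT 3# (426), NanogWT 1# (148) and NanogBiD 8# (117), all of line 1, against 4.24 in mES and 6274 and 7176 in MEF. Their part in the germline levels was not tested. NanogWT 1# and 1#-2 share the label 1#, and counting their mean as 1 sample left 6 genes called against MEF and 0 between the combinations or lines.

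Methylation genes in iPSC differed from MEF in the directions seen at D12, with exceptions. Over all genes tested, 21.5% were called higher in iPSC than in MEF. Dnmt3l, Dnmt3b, Tet1, Uhrf1, Tet2 and Dnmt1 were called higher by 6.93, 4.77, 4.59, 2.94, 2.72 and 1.40 on the log2 scale, Tet3 was called lower (-1.65), and Dnmt3a (-0.50, SE 0.15) and Tdg (0.90, SE 0.18) were not called. Of the other piRNA pathway genes 6 of 9 tested were called higher in iPSC, led by Rnf17 (4.03), Fkbp6 (3.67) and Pld6 (2.23), and Tdrd7 was called lower (-1.81). Of the other meiotic chromosome genes 9 of 14 tested were called higher, led by Ccnb1ip1 (3.53), Rec8 (3.06) and Rec114 (2.78), and of the other germline genes with CpG-rich promoters 6 of 10, led by Rpl10l (5.58), Tex19.1 (5.23) and Hsf2bp (4.68). Of the 19 genes of PRC1.6 and H3K9 repressors 10 were called higher in iPSC and 2 lower, Yaf2 (-1.36) and E2f6 (-1.11). The haploid spermatid markers summed to at most 0.286 FPKM in iPSC.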

How the data were processed

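RNA was measured in 46 samples of mouse cells. The authors trimmed reads with Trim Galore 0.6.4, aligned them to mm10 with HISAT2 2.2.1 and estimated expression with StringTie 2.2.1; the gene annotation and strand setting are not given in the sources used here. The deposited values are FPKM, in a gene table of 34 libraries and a separately quantified transcript table of 15, of which the transcripts were summed by symbol. The number of reads is unknown; relative depth was estimated from 2408 genes whose low values were whole multiples of 1 step (tolerance 0.05).

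Log2(FPKM + 1) was fitted with limma 3.58.1 (R 4.3.3, eBayes with trend), after a filter of at least 1 FPKM in at least 2 samples, with 16 groups for the time course and with terms for combination and line for iPSC. P-values were adjusted over all 16842, 12456 (iPSC) or 13434 (iPSC and MEF) genes. Mov10l1 was tested by exact permutation. Scripts were tested on simulated data. Named genes were, for each list, the called genes with the largest difference, at most 3 a direction. The genes described and all lists were chosen with earlier results of these data known. Alternatives were a pseudocount of 0.1, no filter, TPM rescaling, quantile normalization, a fit to the compared groups alone, no fold limit, the replicate number as a block and leaving out each sample. NanogBiD D8 replicate 2 was not analysed here. Promoter sequences and positions are from RefSeq (GRCm38.p6); where a gene had several windows, the first was used.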

Additional observations from a re-analysis of the deposited data

Results flagged for a closer look

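The change from D0 to D12 was called different between the combinations, by the test of the interaction, for 5 of 6 germline genes tested. Over all genes 13.4% were called higher. The 5 genes passed the filter only with NanogBiD libraries in which they were high, so the count is a description. On the log2 scale NanogBiD exceeded NanogWT by 2.91 for Dazl, 2.42 for Tdrd12, 1.76 for Hormad1, 1.36 for Stk31 and 1.24 for Ddx4. The deeper NanogWT libraries of D12 and the markers of pluripotent cells move with this difference, and their part was not tested.

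Among 20 groups of 6 iPSC samples, of which chance would mark about 1 in 20, 3 held a sample far from the others by Dixon's criterion. Ddx4 stood at 3.94 FPKM in NanogBiD 4#, against 1.38 to 2.16 in the other NanogBiD samples. Tdrd12 stood at 40.1 FPKM in NanogBiD 8#, against 21.1 to 25.3. Sycp3 stood at 3.46 FPKM in NanogWT 2#, against 0.380 to 1.08 in the other NanogWT samples, and the same sample was lowest of all 12 in Dazl, Tdrd12, Stk31, Mov10l1, Tex101 and Hormad1.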

How the results depend on the processing

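The germline genes called in the report gave 162 log2 differences under the alternatives other than leaving out a library, of which 159 kept their direction and their side of the threshold, 3 fell under the fold limit and 0 reversed. The 3 were those of Ddx4 after quantile normalization, 0.93 between the combinations at D12, 0.95 from D0 to D12 with NanogBiD and 0.98 for the interaction. The number of germline genes called between the combinations at D10 was 4 instead of 2 with a pseudocount of 0.1, after rescaling to TPM and without the fold limit. From D0 to D12 with NanogWT it was 4 with a pseudocount of 0.1, 2 after rescaling to TPM and 2 without the fold limit, instead of 0. At D0, D1, D3 and D8 together, with alternatives chosen after seeing the data, it was 3 with a pseudocount of 0.1, 2 after rescaling to TPM and 2 without the fold limit, instead of 0. The cause was not tested. Leaving out 1 library at a time gave 0 to 2 calls with NanogWT from D0 to D12, 0 to 2 between the iPSC lines (2 without NanogWT 2#), 5 to 6 between the combinations at D12 and for the interaction, and the reported count elsewhere.

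The replicate numbers are only shared numbers, since the correlation of same-numbered libraries ran from -0.065 to 0.39 over 7 days. Adding the replicate number to the fit as a block gave 0, 0, 2 and 5 calls between the combinations at D5, D7, D10 and D12, 5 and 0 from D0 to D12 with NanogBiD and NanogWT, 5 for the interaction and 0 at D0, D1, D3 and D8, the reported counts. With NanogWT of D7, of like depth, in place of the deeper NanogWT libraries, a choice made after seeing the data, 2 genes were called at D10 and 6 at D12. Low genes are limited by the scale, since a level under 1 FPKM gives no 2-fold difference on log2(FPKM + 1), and a gene listed at 0 was not detectable at this depth.

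Over all genes, calls from D0 to D12 with NanogWT numbered 2721, against 4253 with a pseudocount of 0.1 and 6420 without the fold limit.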
